A study of Homo sapiens with 9 samples.

Results

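The genes described here are 10 transcription factors and cofactors of the erythroid lineage, namely GATA1, GATA2, KLF1, TAL1, LMO2, LYL1, NFE2, GFI1B, BCL11A and ZFPM1. A read pair was counted for a gene when its 5′ end and its 3′ end both lay on the strand of the gene within 1 kb of its Gencode v44 body in hg38. By this rule 9 of the 10 genes held read pairs, of 22384 genes that did so in all. BCL11A, a repressor of fetal globin genes, had 0 read pairs in the tables used here. These tables may not hold every row of the libraries, so its level is not described. The data are TIF-Seq2 libraries of K562, a human erythroleukaemia cell line that carries the BCR-ABL1 fusion kinase. There were 2 biological replicates of cells treated with 1 μM imatinib, an inhibitor of that kinase, for 24 h, and 2 of cells treated with the solvent DMSO. In TIF-Seq2 each read pair joins the transcription start site (TSS) and the poly(A) site (PAS) of one capped and polyadenylated RNA molecule, so promoter and poly(A) site use can be read from the same pair. The counts used here hold the positions of both ends and not the splicing between them.

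These factors act together on the regulatory regions of red cell genes. GATA1 and GATA2 bind the sequence WGATAR, where W is A or T and R is A or G, and in the course of red cell maturation GATA1 takes over sites that GATA2 holds in progenitors. TAL1 or its close relative LYL1 binds E-boxes and is joined to GATA factors by the bridging protein LMO2, while ZFPM1, also called FOG1, binds GATA1 itself. KLF1 and NFE2 activate globin and haem genes, and GFI1B is a zinc finger repressor needed for red cells and platelets.

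The 4 libraries held 3695520 and 5135829 read pairs for DMSO replicates 1 and 2, and 4263670 and 2263121 for imatinib replicates 1 and 2. The 9 genes with read pairs differed widely in depth, from 238 read pairs for ZFPM1 to 10797 for GFI1B over the 4 libraries. Levels are given as TMM-scaled read pairs per 1000000 (CPM). The erythroid markers HBZ, HBE1, HBG1 and HBG2 were present in every library, with HBG2 at 3714 and 3034 CPM in DMSO and 7647 and 8639 in imatinib, and HBZ at 1141 and 881 in DMSO and 5442 and 4743 in imatinib. Markers of neutrophils summed to at most 0.263 CPM, with ELANE and CSF3R at 0, and those of megakaryocytes summed to 0.405 to 2.45, with GP9 and PPBP at 0. Among markers of other blood cells, CD14 of monocytes, MS4A1 of B cells and CD3E of T cells were at 0. Other markers of these cells were present, with 31.4 to 118 CPM for LYZ and 18.1 to 38.2 for CD68, and neither passed the test. CD3D, of the T cell list, had 257 and 304 read pairs in DMSO and 23 and 8 in imatinib and fell by 3.88 on the log2 scale (adjusted p = 0.00122), and its part in the results was not tested. The 3 fibroblast markers summed to 1.22 to 5.26. In bulk RNA, a change in the number of expressing cells and a change in RNA per cell cannot be told apart.

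At the level of whole genes, GATA2 fell with imatinib, while KLF1, GFI1B and LMO2 rose and GATA1 did not pass the test. Of the 9 genes tested, 4 passed an adjusted p of 0.05 in edgeR's quasi-likelihood test, 3 of them higher and 1 lower, against 14.8% of the 12135 genes tested in the whole series, 8.69% higher and 6.15% lower. GATA2, KLF1 and GFI1B also passed a log2 fold change of 1.5, as did 9.72% of all genes tested. The median log2 fold change of the 9 genes was 1.38, and that of all genes tested was 0.03.

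GATA2, the GATA factor of progenitors, had 74.7 and 95.5 CPM in DMSO and 12.5 and 19.8 in imatinib. All imatinib values were far below the DMSO values, a log2 fold change of -2.42 (SE 0.34, adjusted p = 0.00395, edgeR). This call held without any 1 of the 4 libraries. GATA1, the main erythroid GATA factor, had 179 and 239 in DMSO and 215 and 182 in imatinib. The ranges of the conditions overlapped, and the log2 fold change was -0.07 (SE 0.27, adjusted p = 0.884).

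KLF1, the activator of the adult globin gene and of many red cell genes, had 80.8 and 75.1 CPM in DMSO and 233 and 211 in imatinib. The replicates lay close together and the conditions apart, with a log2 fold change of 1.51 (SE 0.26, adjusted p = 0.00729). GFI1B had the most read pairs of the 9 genes, with 364 and 304 CPM in DMSO and 1107 and 884 in imatinib. Its log2 fold change was 1.58 (SE 0.26, adjusted p = 0.00683). Without DMSO replicate 2, the adjusted p was 0.0656 for KLF1 and 0.0582 for GFI1B, at log2 fold changes of 1.45 and 1.44.

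LMO2 had 34.5 and 30.5 CPM in DMSO and 107 and 60.3 in imatinib. The conditions did not overlap, but the imatinib replicates differed more than the DMSO replicates, and the log2 fold change was 1.38 (SE 0.34, adjusted p = 0.0283). This call was lost without DMSO replicate 1 (adjusted p = 0.0741) and without DMSO replicate 2 (adjusted p = 0.144), and LMO2 did not reach a log2 fold change of 1.5. With same-numbered replicates as a block, the LMO2 call was also lost (adjusted p = 0.0541, edgeR). The LMO2 partners TAL1 and LYL1 did not pass the test. TAL1 had 14.5 and 31.4 in DMSO and 89.2 and 31.6 in imatinib, so imatinib replicate 2 sat next to DMSO replicate 2, and the log2 fold change was 1.40 (SE 0.51, adjusted p = 0.101). LYL1 had 331 and 445 in DMSO and 535 and 320 in imatinib, which overlap, with a log2 fold change of 0.14 (SE 0.31, adjusted p = 0.793).

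NFE2, the large subunit of a globin locus activator, had 337 and 383 CPM in DMSO and 675 and 468 in imatinib. The values did not overlap, yet the log2 fold change of 0.67 (SE 0.27) did not pass (adjusted p = 0.131). ZFPM1 had 6.84 and 7.71 in DMSO and 29.4 and 8.91 in imatinib. Only imatinib replicate 1 stood well above DMSO, and the log2 fold change of 1.44 (SE 0.51) did not pass (adjusted p = 0.0908). In 7 of the 9 genes the 2 conditions did not overlap, which was true of 60% of all genes tested. Imatinib replicate 1 was the higher of the 2 imatinib libraries for 8 of the 9 genes. The values of TAL1 and ZFPM1 turned on which library was left out. Without imatinib replicate 1 the log2 fold changes fell to 0.45 for TAL1, 0.30 for ZFPM1 and 0.39 for NFE2 (adjusted p = 0.407, 0.715 and 0.356). Without imatinib replicate 2 they were 1.90, 1.97 and 0.87, and all 3 passed (adjusted p = 8.78e-08, 7.66e-07 and 0.0129). TAL1 also passed without DMSO replicate 2, at 2.05 (adjusted p = 0.00927).

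**Figure D1:**
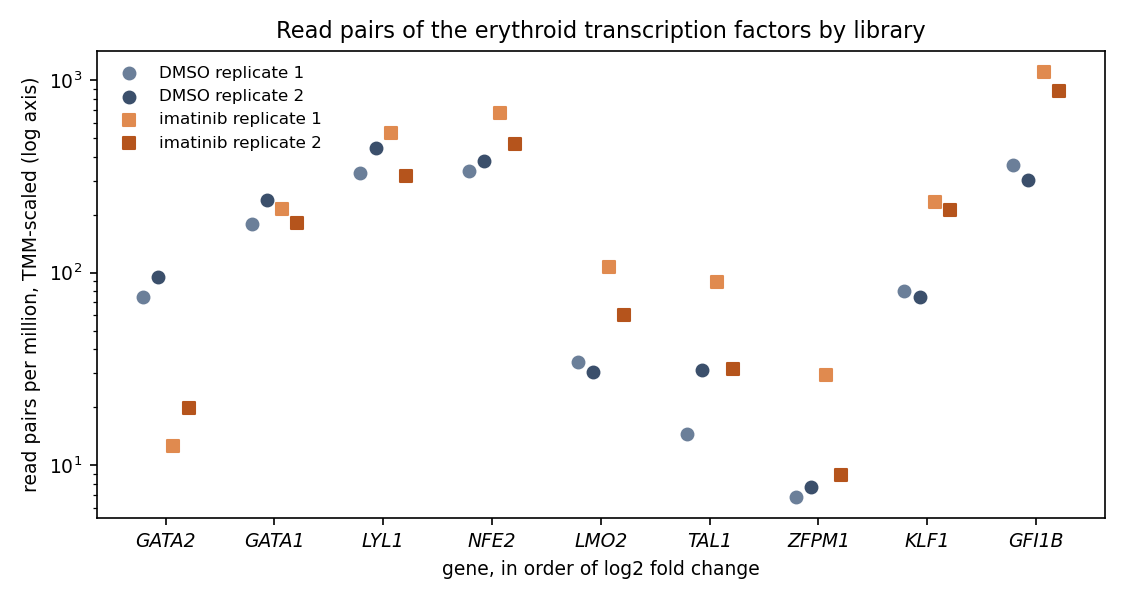
CPM (read pairs per 1000000, TMM-scaled, log axis) of the 9 genes with read pairs in each of the 4 libraries, with circles for DMSO and squares for imatinib, ordered by log2 fold change. GATA2 sits at 74.7 and 95.5 in DMSO and at 12.5 and 19.8 in imatinib, GFI1B at 364 and 304 against 1107 and 884, and the GATA1 values overlap.

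The start regions show at which 5′ ends these changes were seen. A start region is a group of 5′ ends and is not by itself shown to be a promoter. A start region joins 5′ positions with at least 3 read pairs that lie at most 50 bp apart, and those with at least 5% of the read pairs of a gene and at least 10 read pairs are described. There were 19 such regions in the 9 genes, 14 of them with enough counts to be tested, and 8 passed, 7 higher and 1 lower in imatinib, against 13.2% of the 13372 start regions tested genome-wide, 8.06% higher and 5.15% lower. One of the 7, in intron 3 of ZFPM1, passed the filter on low counts only through the imatinib libraries, so a difference was built into its selection, and 6 higher and 1 lower remained without it. The other 5 regions were too low to be tested. The CPM of a region is relative to all read pairs in the start regions tested, and is not comparable with the CPM of a gene.

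Sequences upstream of start regions of KLF1, LMO2, NFE2 and GATA2 are shown because these genes either changed or used more than one promoter. Each is the 150 bases before the most used TSS and the TSS base itself, which is the last letter, in hg38 and in the direction of transcription. Capitals mark WGATAR, searched on both strands in its 4 spellings, which are AGATAA or AGATAG, and TGATAA or TGATAG.
KLF1, exon 1 start (chr19:12887201-12887351, minus strand): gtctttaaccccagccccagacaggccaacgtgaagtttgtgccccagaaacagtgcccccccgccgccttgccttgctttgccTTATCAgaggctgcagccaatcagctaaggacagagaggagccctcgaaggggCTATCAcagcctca
KLF1, intron 1 start (chr19:12886283-12886433, minus strand): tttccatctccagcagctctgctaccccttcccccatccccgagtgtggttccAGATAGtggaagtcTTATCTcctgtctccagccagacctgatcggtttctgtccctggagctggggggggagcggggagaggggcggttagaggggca
LMO2, intron 1 start (chr11:33881938-33882088, minus strand): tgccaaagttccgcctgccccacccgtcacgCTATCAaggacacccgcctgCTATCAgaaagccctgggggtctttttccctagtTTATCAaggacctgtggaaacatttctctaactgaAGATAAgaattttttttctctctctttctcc
LMO2, exon 3 start (chr11:33869969-33870119, minus strand): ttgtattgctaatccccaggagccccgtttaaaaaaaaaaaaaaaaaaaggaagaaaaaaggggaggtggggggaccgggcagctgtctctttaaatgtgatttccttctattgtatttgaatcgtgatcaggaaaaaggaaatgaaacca
NFE2, intron 1 start (chr12:54295758-54295908, minus strand): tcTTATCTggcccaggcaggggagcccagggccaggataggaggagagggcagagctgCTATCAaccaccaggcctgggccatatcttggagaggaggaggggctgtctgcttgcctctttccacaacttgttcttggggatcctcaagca
GATA2, intron 1 start (chr3:128487931-128488081, minus strand): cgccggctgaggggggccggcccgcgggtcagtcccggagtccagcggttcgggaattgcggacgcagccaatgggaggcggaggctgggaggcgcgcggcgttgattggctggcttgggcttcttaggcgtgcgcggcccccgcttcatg

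The WGATAR letters were present in both KLF1 windows, in the LMO2 window of intron 1 and in the NFE2 window of intron 1. In the LMO2 intron 1 window they occurred 4 times, beginning 119, 99, 65 and 30 bases before the TSS. No match was found in the windows of LMO2 exon 3 or GATA2 intron 1. Of the other start regions described, those of LMO2 exon 1, GFI1B main, LYL1 and some of TAL1 held a match. Those of NFE2 exon 1, GATA1, ZFPM1 and the rest of TAL1, its largest and its exon 1 region among them, did not. Among all 8460 start regions of the series with at least 100 read pairs, 10.9% had a match in a window of the same length. A match is a match of letters only, and binding was not measured.

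The main start of GATA2 lay inside its gene. The region chr3:128487903-128487933 in intron 1, whose main TSS lies 15 bp upstream of the annotated start of transcript GATA2-202, held 50.3% of the read pairs. The annotated starts of 5 transcripts further upstream, the canonical GATA2-201 among them, had 2 read pairs within 100 bp in the 4 libraries together. The intron 1 region fell from 39.9 and 63.7 CPM in DMSO to 7.54 and 15.5 in imatinib, a log2 fold change of -2.23 (SE 0.44, adjusted p = 0.00926). Its share of GATA2 read pairs was 44.4% and 53.2% in DMSO and 44.8% and 59.6% in imatinib, so the conditions overlap. GATA1 used 1 promoter, chrX:48786537-48786621 in exon 1, with 94.1% of its read pairs and 93.4% to 94.4% in each library. Its main TSS was the annotated start of the canonical transcript GATA1-202.

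KLF1 had 2 start regions. The first, chr19:12887160-12887245, lies over exon 1 with its main TSS at the annotated start, and it held 82.9% of the read pairs. The second, chr19:12886182-12886283 in intron 1, has no annotated start within 50 bp. It rose from 9.46 and 7.88 CPM in DMSO to 36.5 and 37.7 in imatinib (log2 fold change 2.10, SE 0.36, adjusted p = 0.00474). The first rose from 83.1 and 77.6 to 242 and 218 (1.52, SE 0.27, adjusted p = 0.00656), a call lost without DMSO replicate 2 (adjusted p = 0.0836). The share of the intronic region was 9.86% and 8.67% in DMSO and 12.4% and 13.9% in imatinib, and the change of share did not pass the test of one region against the others of its gene (adjusted p = 1). An RNA that starts there lies past the first ATG, and the next ATG in frame is codon 39 of 362, in exon 2. In all, 302 of 2181 read pairs started between these ATG codons.

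LMO2 used 3 start regions. The region chr11:33881889-33882006, in intron 1 and 10138 bp downstream of the annotated start, held 45.2% of the read pairs, although no Gencode transcript begins within 50 bp of it. The annotated start in exon 1, chr11:33892025-33892078, held 17.3%, and the region chr11:33869828-33870009 at exon 3 held 15.7%. The intron 1 region rose from 16.6 and 10.9 CPM in DMSO to 72.2 and 40.5 in imatinib (log2 fold change 2.06, SE 0.40, adjusted p = 0.00914), a call lost without DMSO replicate 2 (adjusted p = 0.0637). The exon 1 region rose from 3.72 and 3.94 to 31.3 and 13.3 (2.56, SE 0.50, adjusted p = 0.0089), and the value was 1.81 without imatinib replicate 1 (adjusted p = 0.0179). The exon 3 region did not pass the test. It had 11.5 and 15.8 in DMSO and 9.28 and 6.10 in imatinib (-0.80, SE 0.43, adjusted p = 0.25).

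As a share of LMO2 read pairs, the exon 3 region went from 26.8% (95% Wilson interval 19.8 to 35.1) and 40.2% (33.1 to 47.8) in DMSO to 6.54% (4.67 to 9.09) and 7.91% (4.48 to 13.6) in imatinib. The change of share had a log2 value of -2.28 relative to the other regions and passed the test (adjusted p = 0.0234), as did 2.5% of 7198 start regions in genes with more than one. This call was lost in the fits without DMSO replicate 1, DMSO replicate 2 or imatinib replicate 1, with adjusted p values of 0.257, 0.645 and 0.112. It was also lost with same-numbered replicates as a block. Of the 11 start regions described whose share could be tested, the exon 3 region was the 1 that passed. The shares of the other 2 LMO2 regions did not pass (adjusted p of 0.929 and 0.498). All 3 regions lie before the same start codon, and 89.9% of LMO2 read pairs began before the first ATG of the canonical coding sequence.

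NFE2 also had 2 promoters. The larger, chr12:54295641-54295875 in intron 1, began at the annotated start of transcript NFE2-203 and held 57.3% of the read pairs. The other, chr12:54300855-54301123 over exon 1, began at the start of the canonical transcript and held 35%. The intron 1 promoter rose from 230.5 and 232.5 CPM in DMSO to 603 and 402 in imatinib, with a log2 fold change of 1.12 (SE 0.28, adjusted p = 0.0251). The exon 1 promoter had 155 and 228 in DMSO and 274 and 199.5 in imatinib, which overlap (0.31, SE 0.30, adjusted p = 0.545). The call for the intron 1 promoter was lost without DMSO replicate 1 (adjusted p = 0.164) and without DMSO replicate 2 (adjusted p = 0.194). Its share was 54% and 46.4% in DMSO and 63.4% and 63.9% in imatinib, and the change of share did not pass (adjusted p = 1). With same-numbered replicates as a block, the call for the intron 1 promoter was also lost (adjusted p = 0.106, edgeR). Both promoters lie before the first ATG, which is in exon 2.

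GFI1B started mainly at chr9:132978540-132978812, 14 bp upstream of the annotated start of GFI1B-202, with 91.8% of its read pairs. This region rose from 445 and 385 CPM in DMSO to 1418 and 1117 in imatinib (log2 fold change 1.61, SE 0.25, adjusted p = 0.00346). The annotated starts far upstream, of GFI1B-204, GFI1B-201 and GFI1B-205, had 1 read pair within 100 bp in the 4 libraries together. A smaller region at chr9:132977859-132978075, chosen after its values were seen, lies 630 bp upstream of the nearest annotated start and held 2.95% of the read pairs. Its counts were 13 and 17 read pairs in DMSO and 230 and 58 in imatinib, a log2 fold change of 3.58 (SE 0.46, adjusted p = 0.00136) that came to 2.97 without imatinib replicate 1. Its share of GFI1B read pairs went from 0.939% and 0.981% to 4.20% and 2.66%, and the change of share passed the test (adjusted p = 0.0321). The share call was lost without DMSO replicate 1 (adjusted p = 0.512), without DMSO replicate 2 (adjusted p = 0.567) and without imatinib replicate 1 (adjusted p = 0.246).

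LYL1 used 1 start region, chr19:13102559-13102899 at exon 1, with 95.5% of its read pairs. It had 404 and 552 CPM in DMSO and 729 and 427 in imatinib, which overlap. The 4 largest TIFs of LYL1, each joining 1 group of nearby TSSs to 1 group of nearby poly(A) sites, began within it, ended at the same poly(A) site and differed by their TSS. The largest, of 3715 bp, had 634 and 1111 read pairs in DMSO and 1391 and 483 in imatinib (adjusted p = 0.234). The TIF of 3623 bp had 57 and 138 against 42 and 11 (log2 fold change -1.38, SE 0.48, adjusted p = 0.0898), and neither passed.

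**Figure D2:**
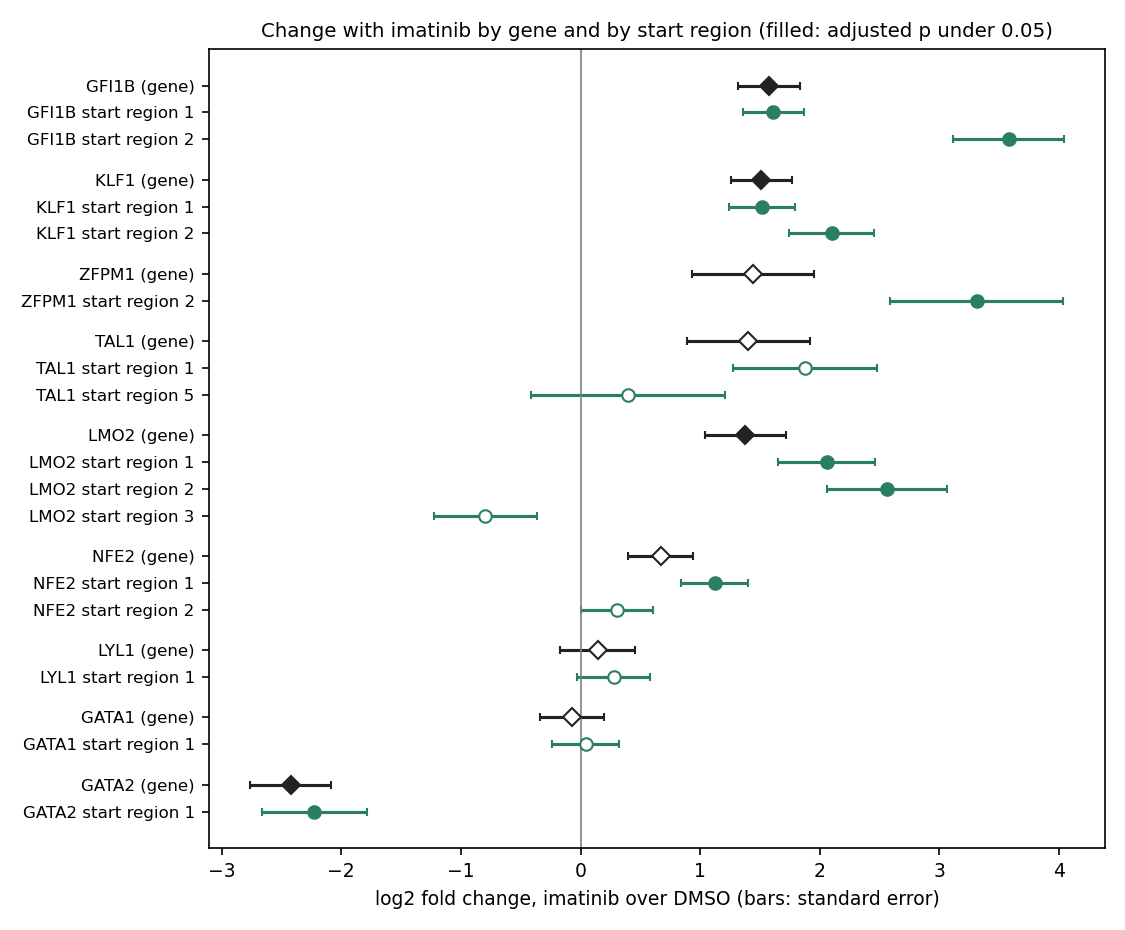
Log2 fold change of imatinib over DMSO with its standard error for each gene (diamonds) and its tested start regions (circles, numbered by size), with filled symbols for an adjusted p under 0.05 in edgeR. The 3 LMO2 regions spread from -0.80 to 2.56, the NFE2 regions lie at 1.12 and 0.31, and both KLF1 regions lie above 1.5.

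**Figure D3:**
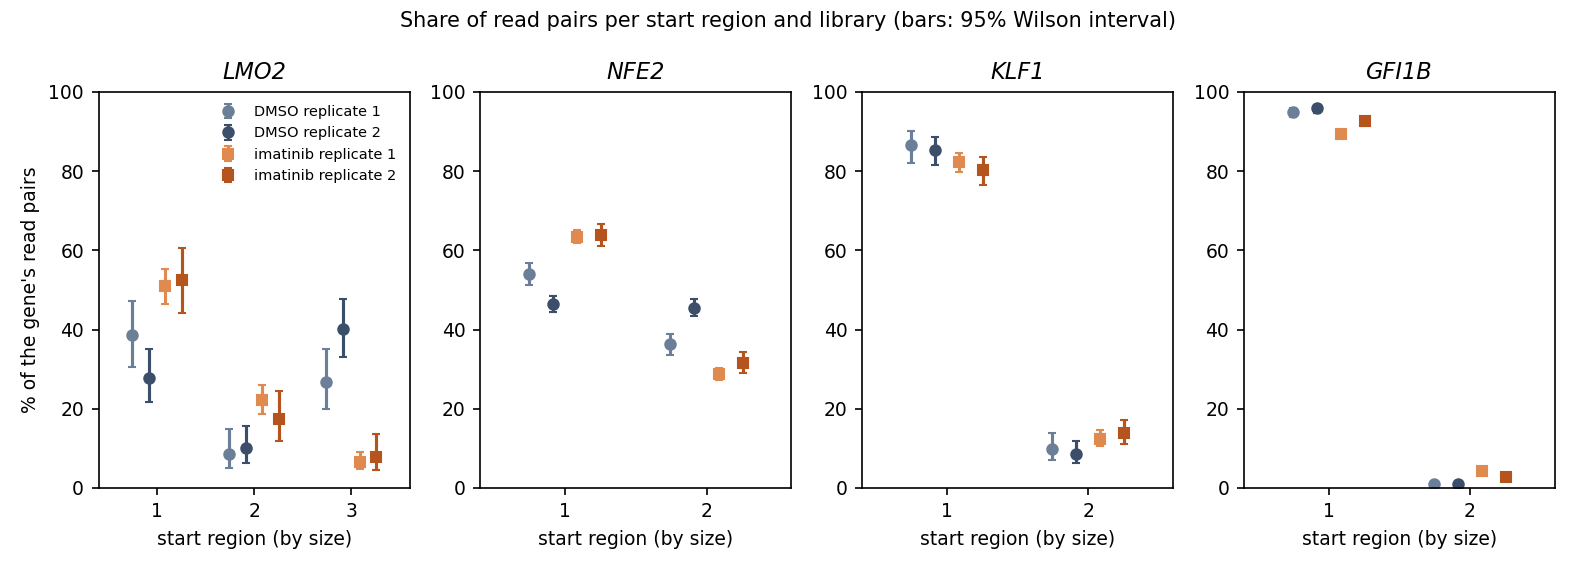
Share of the read pairs of LMO2, NFE2, KLF1 and GFI1B in their start regions (x axis, numbered by size) in each library, with circles for DMSO, squares for imatinib and bars for 95% Wilson intervals, which cover counting error only. LMO2 region 3, at exon 3, falls from 26.8% and 40.2% to 6.54% and 7.91%, and GFI1B region 2 stays under 5% in every library.

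The 5′ ends of TAL1, GATA2 and ZFPM1 were unlike those of the other members. Each 5′ end was placed before the start codon of the canonical coding sequence, between its start and stop codons, introns included, or past the stop codon. Over 7681 protein-coding genes with at least 100 read pairs the median shares were 84.5%, 9.72% and 1.61%. In GFI1B, LYL1, GATA1 and NFE2 the share before the start codon was 97%, 96.8%, 95.4% and 95.2%.

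In TAL1, 77% of the read pairs (506 of 657, 95% Wilson interval 73.6 to 80.1) started past the stop codon, inside the long 3′ UTR of the last exon, and 1.33% of the protein-coding genes had a higher share. By library the share was 82.4% and 64.8% in DMSO and 83.3% and 65.5% in imatinib, so each condition held 1 library with a higher and 1 with a lower share. These read pairs fell on 434 combinations of a 5′ and a 3′ end position, at 1.17 read pairs per combination. Of them, 18.2% had the pyrimidine-purine step (C or T before A or G) typical of promoter starts. Before the start codon TAL1 had the step in 63.5% of 126 read pairs, at 1.31 read pairs per combination. Past the stop codon, GATA2, LMO2 and GFI1B had 1.14, 1.12 and 1.29 read pairs per combination. The step was present there in 18.8%, 21.3% and 20%, so these 2 traits were not particular to TAL1. Over all 7681 genes the step was present in 47.6% of read pairs before the start codon and in 29.85% past the stop codon.

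The high value of TAL1 in imatinib replicate 1 was made up mostly of these ends. Per 1000000 read pairs sequenced, TAL1 had past the stop codon 11.4 and 20.8 in DMSO and 74.8 and 16.8 in imatinib. Before the start codon it had 2.17 and 9.93 in DMSO and 11.3 and 8.40 in imatinib, where the conditions overlap. The known promoter at exon 1, chr1:47232203-47232237, held 1 and 18 read pairs in DMSO and 15 and 3 in imatinib (log2 fold change 0.40, SE 0.81, adjusted p = 0.791).

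**Figure D4:**
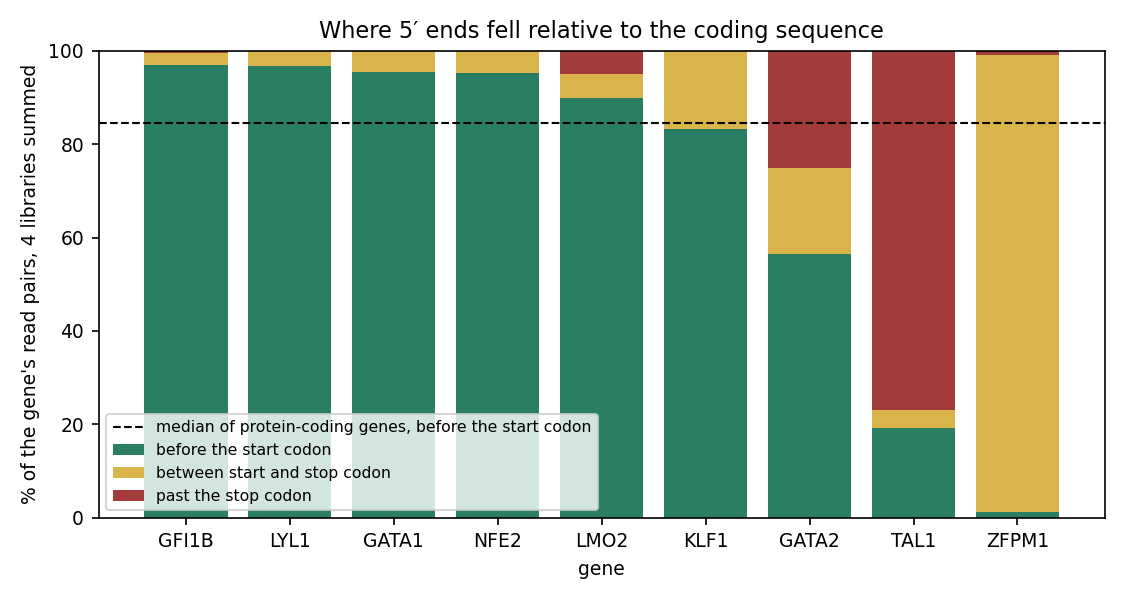
Share of the read pairs of each gene (y axis, 4 libraries summed) that start before the start codon, between start and stop codon or past the stop codon, with the dashed line at the median of protein-coding genes before the start codon, 84.5%. TAL1 has 77% past the stop codon and ZFPM1 97.8% between start and stop codon, while GATA1, LYL1, NFE2 and GFI1B lie above 95% before the start codon.

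Short TAL1 and GATA1 proteins lack the N-terminal part and are made from later ATG codons. In TAL1, 1 read pair had the ATG of codon 160 as its first ATG in frame and 6 had that of codon 176. The annotated start of the short transcript TAL1-203 had 8 read pairs within 100 bp, 0 and 4 in DMSO and 4 and 0 in imatinib. These counts are too low to compare. In GATA1, 12 read pairs started between the first ATG and the ATG of codon 84, the start of the short form GATA1s, which is 0.34% of 3529. They were 2 and 4 in DMSO and 4 and 2 in imatinib. GATA1s is known to arise by skipping of exon 2 or by internal initiation of translation. Both leave the ends of the RNA as they are, so counts of end positions could not show it. Starts between codon 84 and codon 234 came to 86 read pairs, or 2.44%, and to 2.23% to 2.68% in each library.

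GATA2 had 25.1% of its read pairs past the stop codon and 18.4% between start and stop codon. Starts before the start codon had 36.8 and 59.6 read pairs per 1000000 sequenced in DMSO and 7.04 and 13.3 in imatinib. Those between had 14.1 and 18.3 against 2.81 and 2.21, and those past the stop codon 21.1 and 22.8 against 3.75 and 5.30. All 3 classes were thus lower in both imatinib libraries. ZFPM1 had 3 read pairs before the start codon, of 231. Its named start regions lay in exon 10, intron 3 and exon 5, and 42.4% of its read pairs had codon 227, in exon 6, as the first ATG in frame. The intron 3 region, chr16:88498342-88498387, had 2 and 1 read pairs in DMSO and 17 and 7 in imatinib (log2 fold change 3.31, SE 0.72, adjusted p = 0.0148), and its call was lost in DESeq2 (adjusted p = 0.1695), without DMSO replicate 1 (4.04, adjusted p = 0.0535) and without DMSO replicate 2 (2.61, adjusted p = 0.303). It had too few read pairs to be tested without imatinib replicate 1. No DMSO library reached the minimum of the count filter there, and the larger ZFPM1 region in exon 10 was too low to be tested at all.

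**Figure D5:**
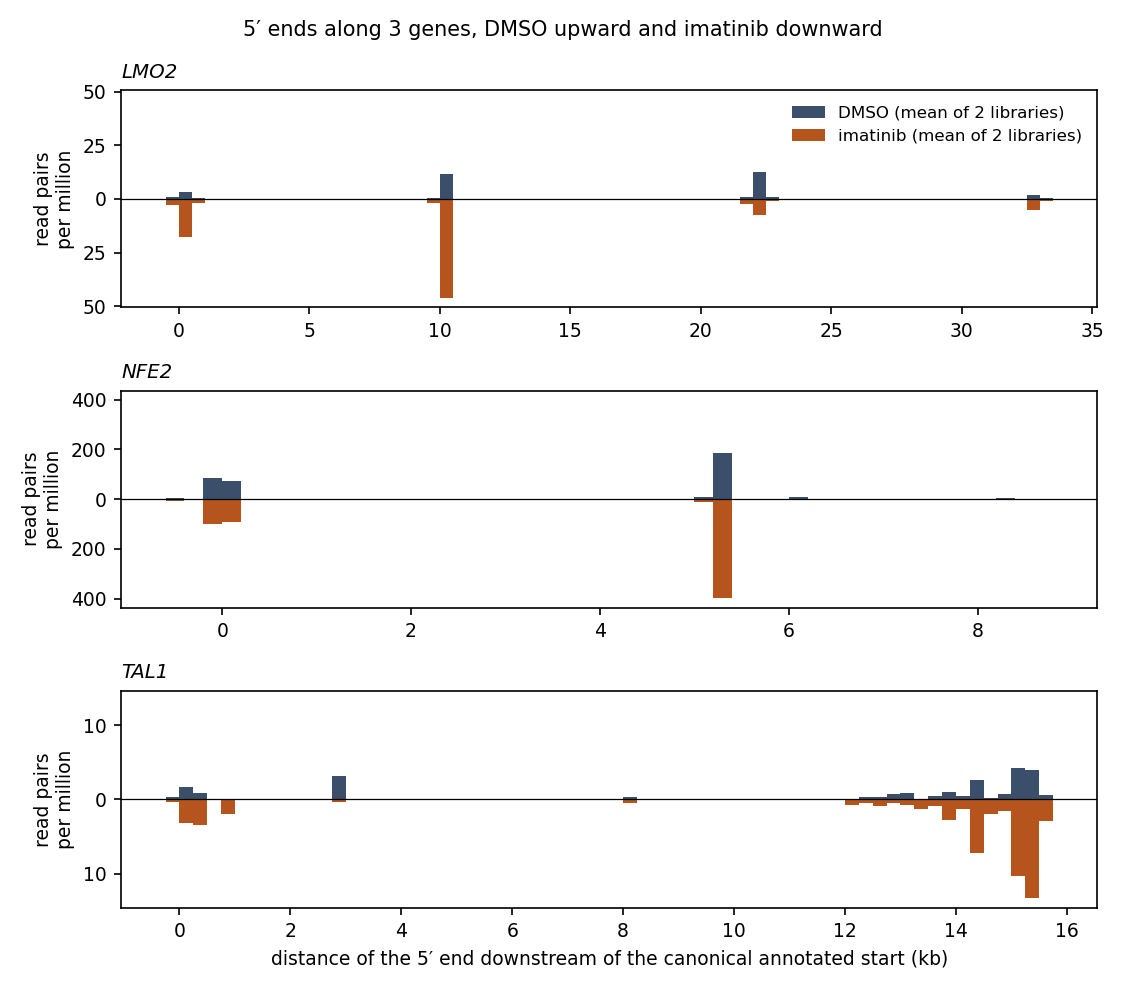
Mean read pairs per 1000000 sequenced by distance of the 5′ end from the canonical annotated start (kb, bins of 0.5 kb for LMO2, 0.2 kb for NFE2 and 0.25 kb for TAL1), with DMSO drawn upward and imatinib downward. In LMO2 the peak at 10 kb is larger in imatinib and that near 22 kb is not, in NFE2 the peak past 5 kb is larger in imatinib while that at the start is similar, and in TAL1 most ends lie between 12 and 16 kb.

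At the 3′ ends the members were far simpler. An end region joins 3′ positions with at least 3 read pairs that lie at most 25 bp apart. In GATA1, KLF1, LMO2, LYL1, NFE2 and GFI1B, 1 end region held 95.8% to 99.9% of the read pairs, in every case within 3 bp of an annotated 3′ end. Of the 12 end regions described, 5 passed the test, 2 higher and 3 lower in imatinib, against 9.1% of the 15797 end regions tested in all, 5.58% higher and 3.53% lower. Of the lower ones, sites 2 and 3 of GATA2 passed the count filter only through the DMSO libraries, and without them 2 were higher and 1 lower. The higher ones were those of KLF1 and GFI1B, with log2 fold changes of 1.62 (SE 0.27, adjusted p = 0.012) and 1.70 (SE 0.26, adjusted p = 0.00931). The KLF1 call was lost without DMSO replicate 1 (adjusted p = 0.0559) and without DMSO replicate 2 (adjusted p = 0.0762). The end region of LMO2 stood at the threshold, with 1.40 (SE 0.37, adjusted p = 0.0501).

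The last 30 bases before the cleavage site are shown for GATA2, KLF1 and TAL1, whose sites are compared, for LYL1 and NFE2, whose main site has neither common signal, and for ZFPM1, which ended before its annotated end. They are given in hg38 and in the direction of transcription, with the signal AATAAA or ATTAAA in capitals.
GATA2, site 1 (chr3:128479423-128479452, minus strand): aagaatAATAAAatactttttgtgaatgcc
GATA2, site 2 (chr3:128480148-128480177, minus strand): agaaaaaatATTAAAaaaatgcataggctt
GATA2, site 3 (chr3:128480040-128480069, minus strand): ctatgaaaggAATAAAacctacacacaagg
KLF1, first site (chr19:12884425-12884454, minus strand): atgggtcctataaaaatgcccctcccagat
KLF1, second site (chr19:12884580-12884609, minus strand): ccgccaAATAAAcggactcagtggacactc
TAL1, first site (chr1:47216292-47216321, minus strand): aagatttctaAATAAAagttttacaaaggg
TAL1, second site (chr1:47218690-47218719, minus strand): aaacctgtcctatgaatgctttgcatttgg
LYL1 (chr19:13099034-13099063, minus strand): ggcaaagcaacatggcagagcagtcatagg
NFE2 (chr12:54292114-54292143, minus strand): ctaagctttggtctataaagtgcgctacag
ZFPM1 (chr16:88535135-88535164, plus strand): gcacttAATAAAgaagttcagtttgatgag

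The main sites of 6 of the 9 genes had AATAAA in this window, and those of KLF1, LYL1 and NFE2 had neither signal. Among the 9649 end regions of the series with at least 100 read pairs, 58.9% had AATAAA and 75.7% had either. In KLF1 the second site, 158 bp before the annotated end, had AATAAA but only 22 read pairs, or 1.01%. Of all KLF1 read pairs 9.60% had 7 or more A among the 10 bases after the 3′ end and were set aside as possible internal priming, compared with 0% to 4.36% in the other 8 genes. With these pairs included, the main site of KLF1 held 89.1% in place of 98.6%.

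GATA2 used 3 poly(A) sites at the end of the gene. The site at the annotated gene end held 83.1% of the read pairs, and those at chr3:128480140-128480150 and chr3:128480038-128480044 held 9.23% and 5.97%. All 3 fell, with log2 fold changes of -2.27, -2.47 and -3.41 (SE 0.38, 0.54 and 0.75, adjusted p = 0.0116, 0.0258 and 0.026). Site 2 had 27 and 46 read pairs in DMSO and 5 and 4 in imatinib, and site 3 had 14 and 36 against 1 and 2. These 2 sites passed the count filter only through the DMSO libraries, so a difference was built into their selection. The calls for sites 2 and 3 were lost in DESeq2, with adjusted p values of 0.0843 and 0.0951, and without DMSO replicate 2, with 0.1055 and 0.435. Without imatinib replicate 1 the third site was at -2.53 with an adjusted p of 0.0641, and without imatinib replicate 2 at -4.36 (adjusted p = 0.00024). The share of the main site was 83.1% and 82.8% in DMSO and 84.5% and 85.1% in imatinib. From the intron 1 promoter, 82.6% of the read pairs ended at the first site, 8.95% at the second and 6.49% at the third.

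TAL1 ended mainly at the annotated gene end, with 82.8% of its read pairs, and at chr1:47218690-47218706 with 6.70%, further upstream in the 3′ UTR. The upstream site had 2 and 29 read pairs in DMSO and 11 and 2 in imatinib. The TAL1 start at exon 1 was linked to both, with 15 read pairs to the gene end and 12 to the upstream site. Each of the 4 start regions in the 3′ UTR was linked to the gene end by 95.7% to 100% of its read pairs. These 4 regions lie downstream of the upstream site, so an RNA that starts in them could not end there. Their links are therefore not a comparison with those of the exon 1 start. In LMO2, 17 read pairs from the exon 1 start ended in intron 1 at chr11:33891665-33891673. They were 1 and 2 in DMSO and 13 and 1 in imatinib, so 1 library carried most of them. ZFPM1 ended at chr16:88535159-88535165, in exon 10 and 1867 bp before the annotated end, with 92.2% of its read pairs. Of the 5 end regions whose share could be tested, 0 passed in edgeR, against 0.0589% of 10185 end regions that passed genome-wide, and 1 had an unadjusted p under 0.05, against 5.17% genome-wide.

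TIFs, which fix both ends, were tested in the same way. Among the 22 largest TIFs of these genes, at most 4 per gene, 18 were tested and 9 passed, 8 higher and 1 lower, against 11.6% of 15477 TIFs, 6.6% higher and 4.96% lower. Of the higher ones, 3 passed the count filter only through the imatinib libraries, namely the KLF1 TIF of 1859 bp and GFI1B TIFs 3 and 4, and 5 higher and 1 lower remained without them. The lower one was the GATA2 TIF of 8509 bp from the intron 1 start to the gene end, with 64 and 146 read pairs in DMSO and 13 and 14 in imatinib (log2 fold change -2.30, SE 0.49, adjusted p = 0.0174), a call lost without DMSO replicate 2 (adjusted p = 0.0837). The 4 GFI1B TIFs shared one poly(A) site, and the first 2 rose by 1.64 and 2.01 on the log2 scale. TIF 3 had 4 and 3 read pairs in DMSO and 61 and 17 in imatinib, and TIF 4 had 1 and 1 against 36 and 9. These DMSO counts are too near 0 for a fold to be given, and TIF 4 could not be tested without imatinib replicate 1. GFI1B TIF 2, of 13026 bp, was not called without DMSO replicate 1 (adjusted p = 0.0594) or DMSO replicate 2 (adjusted p = 0.238). The KLF1 TIFs of 2777 bp and 1859 bp rose by 1.55 and 2.17, and both calls were lost without DMSO replicate 1 (adjusted p = 0.0588 and 0.139) and without DMSO replicate 2 (adjusted p = 0.0795 and 0.197). The call of the shorter one was also lost in DESeq2 (adjusted p = 0.12). The LMO2 TIF of 23360 bp from the intron 1 start had 12 and 14 against 105 and 29 (2.76, SE 0.49, adjusted p = 0.00963). The NFE2 TIF of 3645 bp from the intron 1 promoter rose by 1.24 (SE 0.28, adjusted p = 0.0206), and the 3 TIFs of the exon 1 promoter did not pass. The NFE2 call was lost without DMSO replicate 1 (adjusted p = 0.135) and without DMSO replicate 2 (adjusted p = 0.128). TAL1 and ZFPM1 had 0 TIFs.

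Genes on the opposite strand overlap 7 of the members. GATA2-AS1 had 286 and 459 read pairs in DMSO and 502 and 164 in imatinib, with a log2 fold change of 0.11 (adjusted p = 0.832), beside the fall of GATA2. The lncRNA ENSG00000258344, opposite NFE2, had 3210 and 4529 against 3643 and 2926 (0.23, adjusted p = 0.632). TSC1, opposite GFI1B, had 19 and 26 against 38 and 35 (1.15, adjusted p = 0.104). The other 4 antisense genes held at most 4 read pairs.

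The genes around these factors moved unevenly. Among 19 erythroid target genes, 17 were higher in imatinib and 0 lower, against 8.69% higher of all genes tested, and the median log2 fold change was 2.33. DESeq2 called 16 of the 17 and not HBA1, at an adjusted p of 0.0589. The anion exchanger gene SLC4A1 had 2 and 4 read pairs in DMSO and 948 and 109 in imatinib. EPB42, of the red cell membrane skeleton, had 8 and 8 read pairs in DMSO and 938 and 201 in imatinib. SLC4A1 and EPB42 reached the minimum of the count filter only in imatinib, so a difference was built into their selection. Both are counted among the 17. GYPB, a glycophorin, rose by 3.91 on the log2 scale (adjusted p = 0.00312). HBG2, the target with the most read pairs, rose by 1.27 (SE 0.25, adjusted p = 0.0132). HBG1 and HBG2, and likewise HBA1 and HBA2, are near-identical copies between which unique mapping may divide reads unevenly.

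Of 9 partners of the LDB1 complex, which holds TAL1, LMO2 and GATA1 together, 2 were lower and none higher, against 6.15% lower and 8.69% higher of all genes tested. CBFA2T3 fell by 1.26 and SSBP2 by 1.19 (adjusted p = 0.0218 and 0.0327), while SSBP3, the partner with the second most read pairs, was at 0.73 (adjusted p = 0.108). Of 15 tested corepressor subunits, through which GFI1B and ZFPM1 act, 0 passed in edgeR and 0 in DESeq2, against 14.8% of all genes in edgeR. At an unadjusted p under 0.05 there was 1 of the 15, against 31.2% of all genes. HDAC2, the subunit with the most read pairs, was at -0.41 (SE 0.40). Among 5 tested partners and relatives of NFE2, 1 passed: MAFF fell by 3.25 (adjusted p = 0.022), with 21 and 67 read pairs against 7 and 0. MAFF reached the minimum of the count filter only in DMSO, so a difference was built into its selection. Among 6 tested relatives of KLF1, 1 passed, KLF10, at 1.66 (adjusted p = 0.0204), a call not made by DESeq2. These counts of 1 in 5 and 1 in 6 are near the 14.8% of all genes.

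Of 10 tested haematopoietic transcription factors outside these families, 3 were lower and 1 higher, against 6.15% and 8.69% of all genes tested, and DESeq2 called 3 of the 4. HHEX, a homeobox factor of progenitors, had 196 and 355 read pairs in DMSO and 17 and 18 in imatinib and fell by 3.49 on the log2 scale (adjusted p = 0.0022). MYB fell by 1.67 and SPI1, the myeloid factor PU.1, by 1.12 (adjusted p = 0.0378 and 0.0382), and FOXO3 rose by 1.79 (adjusted p = 0.038), the call not made by DESeq2 (adjusted p = 0.194). As a check of the treatment, 6 of 7 tested genes that lie downstream of BCR-ABL1 signalling were lower, against 6.15% of all genes. CISH, SOCS2, PIM1, BCL2L1 and CCND2 were lower by 1.77 to 2.79 on the log2 scale. The sixth, EGR1, had 119 and 105 read pairs in DMSO and 4 and 0 in imatinib. It reached the minimum of the count filter only in DMSO, so a difference was built into its selection.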

How the data were processed

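TIF-Seq2 libraries of 4 K562 cultures, 2 with DMSO and 2 with imatinib, were analysed. The authors trimmed reads (cutadapt 1.16), aligned them to hg38 (STAR 2.5.3a), kept unique pairs, removed duplicates by molecular identifier and deposited, per library, raw counts of read pairs for each combination of 5′ and 3′ end. Versions are from the submitters' processing notes.

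Counts were summed per gene, start region, end region and TIF over the whole series. Regions used only pairs whose ends lay between 300 and 2000000 bp from each other and whose 10 bases after the 3′ end held under 7 A. Each table was filtered with filterByExpr, scaled by TMM and tested with edgeR 4.0.16 (R 4.3.3, quasi-likelihood, Benjamini-Hochberg over all features, threshold 0.05). Shares within a gene were tested with diffSpliceDGE. DESeq2 1.42.0, other filters, windows and joining distances and leaving out each library were alternatives. Scripts were tested on simulated data. Wilson intervals cover counting error only. With 2 replicates per condition, p-values rest on the spread of 4 libraries.

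Start and end regions with at least 5% and 10 read pairs of a gene, and its 4 largest TIFs, were named. The genes and gene lists were chosen with earlier results of these data known. PacBio and 3′ end libraries were not analysed here. Some marker genes and sequences are not reported here.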

Additional observations from a re-analysis of the deposited data

How the results depend on the processing

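The calls rest on 2 libraries per condition, and depth limits TAL1, ZFPM1 and the smaller regions. Of all genes, 1800 passed, 2732 without the filter on low counts and 820 to 3986 without 1 library, and 58.6% of the calls were higher in imatinib, against 48.5% in DESeq2. Of the 9 genes, 4 passed, and 2 to 7 without 1 library. Start regions numbered 1766 (854 to 3387 without 1 library), with 8 of those described (5 to 13). End regions numbered 1438 (2408 without the filter, 549 to 3846 without 1 library). TIFs numbered 1789 (1129 in DESeq2, 3040 without the filter, 685 to 3540 without 1 library). Shares numbered 180 for starts (2 to 284) and 6 for ends (1 to 28). The paper names a corresponding DMSO control, and no label says whether same-numbered libraries were paired. Their deviations had a correlation of -0.236, which cannot settle this with 2 replicates per condition. The main fits did not take the numbers as pairs. A replicate block gave 1148 genes, 1032 start regions, 761 end regions, 1071 TIFs, 63 start shares and 1 end share. Among the values described it ended the calls of LMO2 (adjusted p = 0.0541), its exon 3 share (0.110), the GFI1B upstream share (0.127), the NFE2 intron 1 promoter (0.106), the second GATA2 end (0.0513), KLF1 TIF 2 (0.0510) and NFE2 TIF 1 (0.0621). The crossed pairing, chosen after seeing the data, gave 3723 genes, 7 of the 9, 2807 start regions, 3678 end regions and 3971 TIFs. Log2 fold changes that changed sign all belonged to values that did not pass. For the GATA1 start region this was -0.0046 in DESeq2 and -0.045 without the filter, for its end region -0.0067 without the filter, and for LYL1 TIF 4 -0.0097 in DESeq2, -0.030 without the filter, -0.038 with the replicate block and -0.034 with the crossed pairing. Without 1 library the log2 fold change ran from -0.293 to 0.139 for GATA1 and from -0.264 to 0.428 for LYL1. For start regions it ran from -0.193 to 0.265 for GATA1, -0.51 to 3.03 for TAL1 at exon 1 and -0.134 to 0.590 for LYL1, and for end regions from -0.191 to 0.282 for GATA1 and -0.187 to 0.611 for LYL1. For TIFs it ran from -0.132 to 0.393 for GATA1 TIF 1, -0.195 to 0.781 for LYL1 TIF 2, -0.797 to 0.502 for LYL1 TIF 4, -0.184 to 0.753 for NFE2 TIF 2 and -0.0671 to 0.249 for NFE2 TIF 3. For shares it ran from -1.03 to 1.15 for TAL1 at exon 1 and from -0.00258 to 0.00992 for LYL1. The cause was not tested.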
